A study of Rattus norvegicus with 12 samples.

Results

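Cytosolic ribosomal protein genes were followed in RNA from rat joint tissue. Members were the gene models that the authors' tables class as protein coding and whose symbol is Rpsa or follows the Rpl, Rps or Rplp pattern of a letter code and a number, with at most a closing a, x, y or l and a further number. This gave 89 gene models under 85 names, of 23144 genes listed in the tables. Of these, 51 belong to the large subunit and 38 to the small subunit. Rpl21, Rpl22, Rpl35a and Rps13 are each held by a pair of models on different chromosomes. The 12 libraries fall into 3 groups of 4, labelled treatment, model and sham. The series title names acupuncture around the knee as a treatment of knee osteoarthritis, a disease in which joint cartilage is lost. The labels give no strain, age, sex or way of making the model, and do not say what the sham animals received. Nor do they say whether each replicate is an animal of its own; the p-values therefore reflect only how far these libraries spread, and part of that may be technical.

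The ribosome translates mRNA into protein. Its small subunit holds the mRNA and reads the codons, and its large subunit joins the amino acids and passes the new chain out through a tunnel. Ribosomal protein mRNAs are among the most abundant of a cell and in mammals usually begin with a run of pyrimidines (the 5′ TOP motif) through which the growth-sensing kinase mTOR controls their translation. Most members are present in every cell type, but a few have paralogues with a tissue of their own, such as Rpl3l of striated muscle and Rpl10l and Rpl39l of the testis.

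Start sites of members were searched for pyrimidine runs. In the RefSeq promoter table of build GRCr8, 61 member models had an entry of the same symbol on the same chromosome, 8 had their symbol only on another chromosome and 20 had none. A run of at least 8 bases that are all C or T, read on the strand of the gene within 15 bases on either side of the start, was found in 38 of the 61 (62.3%), against 11.4% of all 33469 promoters in the table. This search is looser than the TOP motif, which begins at the first transcribed base. The windows below are shown because they belong to members that passed the test between treatment and sham, or to paralogue and parent genes described further on; capitals mark such a run.
Rps9, chr1:74430423-74430452, minus strand: tccggcggccacgTTTCTCTTTgtcacggg
Rps15, chr7:10068101-10068130, minus strand: cgctgacaccgCTTCCTTTTCCCagcagcc
Rps3, chr1:163195762-163195791, minus strand: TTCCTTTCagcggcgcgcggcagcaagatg
Rpl13, chr19:68062499-68062528, plus strand: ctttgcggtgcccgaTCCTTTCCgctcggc
Rplp0, chr12:46718376-46718405, minus strand: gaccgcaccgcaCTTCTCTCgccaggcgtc
Rpl18, chr1:105325255-105325284, plus strand: tctggacctggtctagcaggaggcgccatc
Rps12, chr1:23500060-23500089, plus strand: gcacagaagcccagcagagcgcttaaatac
Rps27, chr2:177964592-177964621, minus strand: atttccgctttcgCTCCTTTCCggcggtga
Rps27l, chr8:76443643-76443672, plus strand: gtttattcatttgtcattatttgtggtgtc
Rpl3, chr7:113507976-113508005, minus strand: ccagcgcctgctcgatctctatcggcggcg
Rpl3l, chr10:14258431-14258460, plus strand: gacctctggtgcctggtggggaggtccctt
The listed start may differ from the start used in the joint, so a window without a run says only that these letters are not there. Of 10 members past the test between treatment and sham that had an entry, 5 held a run, and these 5 are all shown. Rpl6 and Rplp2 also passed and had an entry, with longest runs of 5 and 6 bases, but their windows are not shown. Matched members with a run had a median log2 difference of -0.12 between treatment and sham, and the 23 without one had -0.23.

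Libraries held 15513116 to 17218402 reads assigned to genes. Within each group, pairs of replicates were further apart than sampling noise alone gives, with a chi-square statistic of 17.4 to 318 per degree of freedom. All 10 markers of joint tissue, such as cartilage collagen and lubricin, were measured, with summed levels of 4081 to 22967 CPM (a gene's reads scaled to a common library total) in treatment, 2108 to 7806 in model and 1378 to 3226 in sham. Markers of other cell types also differed between groups. All 13 red cell precursor markers were measured and summed to 360 to 4833 CPM in treatment, against 51141 to 83559 in model and 40750 to 63974 in sham. The 17 markers of dividing cells summed to 193 to 353 CPM in treatment, against 1075 to 4478 in model and 2340 to 3487 in sham. Neutrophil precursor markers (13 of 13 measured) summed to 9.53 to 224 CPM in treatment, against 4241 to 15406 in model and 15304 to 26236 in sham. B cell markers (10 of 10) summed to 14.2 to 20.8 CPM in treatment, against 210 to 476 in model and 303 to 595 in sham. Fibroblast markers (10 of 10) ran the other way, at 24552 to 83253 CPM in treatment, against 16540 to 25400 in model and 8128 to 21686 in sham. Skeletal muscle markers (13 of 15 measured) were high in single libraries, at 47761 CPM in treatment 2, 33847 in sham 2 and 29909 in sham 4, and at 60.8 to 8301 in the other 9. In bulk tissue, fewer cells of a type and less RNA per cell cannot be told apart.

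Member levels spanned a wide range. Of the 89 models, 64 had a mean of at least 100 CPM and held 98.3% of all member reads, 9 lay between 10 and 100 CPM and 16 were under 10. Divided by the length of the listed transcript, the 64 well-measured members ran from 43.5 CPM per kilobase for Rpl7l1, a paralogue of Rpl7 that acts in assembly of the large subunit, to 1054 for Rps15, a protein of the small-subunit head. The median was 348, and Rplp0, the base of the stalk that recruits elongation factors, stood just below the top at 1010. In 17 models the listed length equals the genomic span, so they hold no intron. Among these are Rps10, Rpl39 and Rpl30l2, and together they took 1.43% of member reads. Another 318 models described as 40S or 60S ribosomal proteins fall outside the name rule and took 0.45% to 0.72% of reads in each library. Neither the use of strand nor the handling of reads with several matches is stated in the labels or file headers, so the division of reads among a parent gene, its intronless copies and these further models is uncertain.

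Members together took a smaller share of reads in treatment than in sham. The share was 2.64%, 2.52%, 2.39% and 2.52% in treatment 1 to 4, against 3.13%, 2.55%, 2.95% and 2.92% in model and 3.33%, 3.10%, 3.56% and 3.01% in sham. Every treatment library lay below every sham library, while model 2 lay within the treatment range. The means were 2.52% ± 0.10 in treatment, 2.89% ± 0.24 in model and 3.25% ± 0.25 in sham (SD, n = 4 each). With haemoglobin and mitochondrially encoded genes left out of the totals, the means were 2.66% in treatment, 3.22% in model and 3.55% in sham. The subunits kept their proportion, with small-subunit genes at 44.5% to 45.3% of member reads in treatment, 44.0% to 45.5% in model and 44.9% to 46.4% in sham. The further ribosomal protein models outside the name rule moved with the members, at 19.0 to 20.3 reads per 100 member reads in treatment, 19.1 to 20.6 in model and 18.2 to 20.3 in sham. Between treatment and sham, 13 of 13 red cell and 12 of 13 neutrophil markers also fell, in the test described below. So did 10 of 10 B cell and 17 of 17 dividing cell markers, against 19.5% of all genes. In the same test 9 of 10 fibroblast and 5 of 10 joint tissue markers rose, against 17.3% of all genes. Of 13 skeletal muscle markers 0 passed, with a median log2 difference of -3.39. The part of these cell types in the share and in the differences of single members was not tested.

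**Figure D1:**
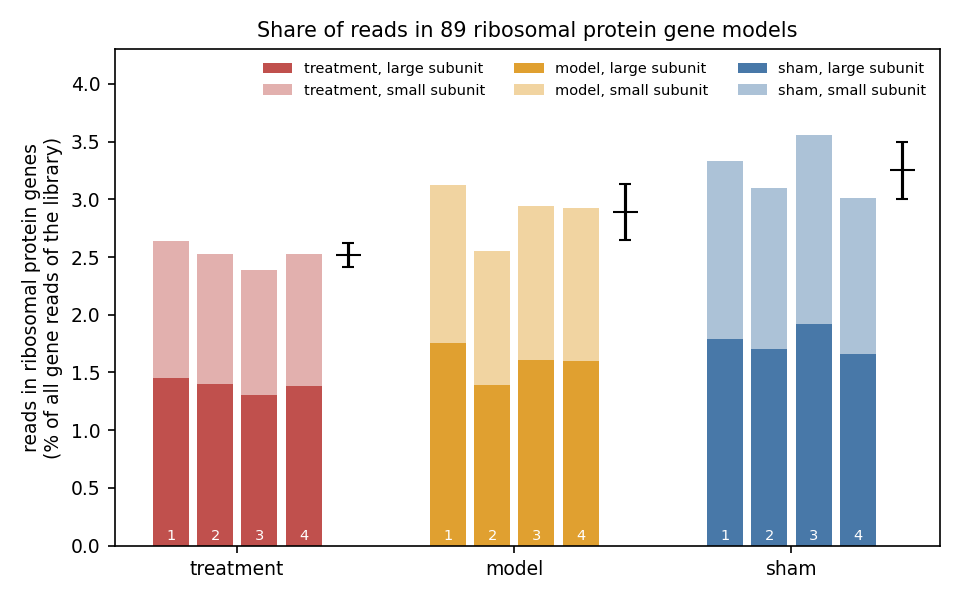
Share of each library's gene reads that fell in the 89 ribosomal protein gene models, in percent, with large-subunit genes at the bottom of a bar and small-subunit genes in a paler shade on top. White digits give the replicate and black bars the group mean ± SD (n = 4); the 4 treatment libraries lie at 2.39% to 2.64%, below all 4 sham libraries at 3.01% to 3.56%.

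Treatment against sham was the comparison in which members passed the test. With limma on log2(value + 1) over all genes, called at a Benjamini-Hochberg false discovery rate of 0.05, 15 of 87 members tested fell (17.2%) and 1 rose, against 19.5% of all genes tested that were lower and 17.3% that were higher. The share of members that fell was thus near that of all genes, while higher calls were few. The median log2 difference was -0.20 over members and -0.01 over all genes tested, and 75.9% of members lay below 0, against 50.4% of all genes. Among small-subunit genes 8 of 38 fell and 1 rose, and among large-subunit genes 7 of 49 fell and 0 rose. Values of the 2 groups did not overlap for 28 members lower in treatment, against 19.8% of all genes, and for 1 member higher in treatment, against 16.9%.

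In the small subunit, Rps12, a protein of the beak of the head, had normalised values of 2937, 2679, 3202 and 2791 in treatment, against 4799, 4212, 4245 and 3947 in sham. All treatment libraries lay below all sham libraries (log2 difference -0.57 ± 0.13, SE, n = 4 each, limma adjusted p = 0.00777). Rps12 (ENSRNOG00000016411) lies on chromosome 1 from 21680852 to 21683014 in mRatBN7.2, the build of the authors' tables. It was past the test in 17 of 19 alternative analyses run for this comparison. Rps9, which lies by the channel where mRNA enters, had 6385, 6898, 6881 and 6074 in treatment, against 9335, 8498, 10325 and 8945 in sham (-0.50 ± 0.13, limma adjusted p = 0.0162). Treatment libraries were again the lower in all 4 replicates of each.

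Rps10, Rps10l1, Rps3 and Rps15 of the small subunit also fell. Rps10, which sits at the head and is a ubiquitination target on collided ribosomes in human cells, is represented by a pair of models. The model named Rps10 has no intron and lies on chromosome 6, and its values were 395, 597, 497 and 356 in treatment, against 608, 641, 685 and 738 in sham (log2 difference -0.56 ± 0.18, limma adjusted p = 0.0372). The model named Rps10l1 has introns, lies on chromosome 20 and was more abundant, with a mean of 261 CPM against 35.5 CPM for Rps10. Its values were 3397, 3342, 3493 and 3456 in treatment, against 5175, 4460, 5211 and 4408 in sham (-0.49 ± 0.13, limma adjusted p = 0.0137). Both models thus differed in the same direction without overlap of groups, and how reads were split between them is uncertain. Rps3, which also lines the mRNA entry, and Rps15 differed by -0.45 and -0.38 (limma adjusted p = 0.0324 and 0.0490).

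In the large subunit, Rpl18, Rpl13 and Rpl27, proteins of its solvent side, fell the most among members past the test. Rpl18 had values of 4725, 4643, 5487 and 4869 in treatment, against 8282, 6579, 7922 and 6532 in sham (log2 difference -0.57 ± 0.14, limma adjusted p = 0.0126). Rpl13 had 6449, 6880, 6845 and 6289 in treatment, against 10122, 9232, 10363 and 8761 in sham (-0.54 ± 0.13, limma adjusted p = 0.0101). Rpl27 had 4642, 4582, 4664 and 4503 in treatment, against 6384, 6532, 7064 and 6270 in sham (-0.51 ± 0.12, limma adjusted p = 0.00863). None of the 3 had groups that overlap, and Rpl27 spread least, with an SD of 72.3 in treatment and 351 in sham. Rpl6, a further protein of the large subunit, differed by -0.41 (limma adjusted p = 0.0486).

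The stalk of the large subunit, which brings elongation factors to the ribosome, is built from Rplp0 with Rplp1 and Rplp2. Rplp0, the most abundant of these and a common reference gene in quantitative PCR, had values of 17091, 18588, 18869 and 17659 in treatment, against 27180, 21490, 26847 and 22531 in sham. The groups did not overlap (log2 difference -0.43 ± 0.15, limma adjusted p = 0.0492). Rplp2 differed by -0.44 ± 0.14 (limma adjusted p = 0.0321). Rplp1 did not pass, at 7609, 9252, 6995 and 6791 in treatment and 8609, 8549, 9009 and 8303 in sham, where treatment 2 lay above every sham library (-0.18 ± 0.15, limma adjusted p = 0.372).

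**Figure D2:**
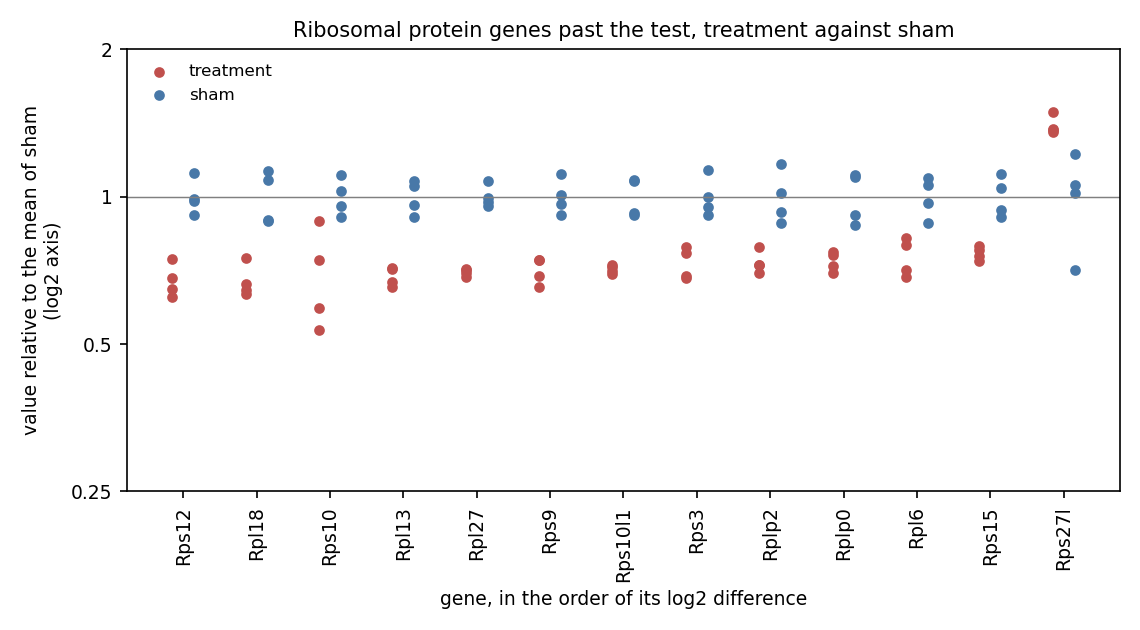
Normalised values of 13 of the 16 ribosomal protein genes past the test between treatment and sham, each divided by the gene's mean in sham, on a log2 axis. Points are single libraries (4 in treatment, 4 in sham), and for each of the 12 genes shown that fell every treatment point lies below every sham point, while Rps27l at the right is the single gene that rose.

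Other members with known special roles did not pass between treatment and sham in the analysis as reported. Rps6, whose phosphorylation by S6 kinases follows mTOR activity, differed by -0.20 ± 0.17, and Rpsa, also known as the laminin receptor, by -0.32 ± 0.15. Rpl5 and Rpl11, which carry the 5S RNA and bind Mdm2 when free of ribosomes, differed by -0.14 ± 0.15 and -0.23 ± 0.15. Many ribosomal protein genes are mutated in human Diamond-Blackfan anaemia, a failure of red cell formation, among them Rpl5 and Rpl11 and also Rps10, Rpl18 and Rpl27, which fell here. Further genes of that disease that did not pass included Rps19 (-0.24 ± 0.13), Rps24 (0.15 ± 0.17) and the Rpl35a models on chromosome 11 (-0.02 ± 0.35) and 5 (-0.62 ± 0.49). Both Rpl35a models had few reads, at 2.49 to 5.99 CPM on chromosome 11 and 2.89 to 13.1 CPM on chromosome 5 over the 12 libraries. Rps27a, made as a fusion with ubiquitin, differed by -0.23 ± 0.27, and Rps4x, an X-linked protein of the small subunit, by 0.00 ± 0.14. Rpl3, near the peptidyl transferase centre, came close without overlap of groups (-0.41 ± 0.16, limma adjusted p = 0.0647). Rpl10, a late-joining protein of the large subunit, differed by -0.03 ± 0.14 and the chromosome 5 model of Rpl22 by -0.10 ± 0.14. Limma adjusted p for the 10 models before Rpl3 lay between 0.120 and 0.985. The groups overlapped for Rps4x, at 12200, 11884, 11002 and 9913 in treatment and 11211, 10247, 12431 and 10948 in sham.

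The number of members called between treatment and sham depended on the libraries, the tool and the scaling. With all libraries, 16 members and 36.8% of all genes were called in either direction. Leaving out treatment 1, 2, 3 or 4 gave 10, 18, 7 or 9 members, against 32.4%, 38.6%, 31.1% or 34.2% of all genes. Leaving out sham 1, 2, 3 or 4 gave 15, 9, 5 or 9 members, against 37.2%, 29.6%, 29.1% or 30.3% of all genes. Without the 3 libraries richest in muscle markers (treatment 2, sham 2 and sham 4) 8 members were called, 6 of them among the 16, against 22.8% of all genes. Over the 19 alternatives, Rplp0 and Rps15 were called in only 5, Rpl6 in 7, Rps10 in 9, Rps3 in 10 and Rplp2 in 12. Rps9 was called in 16, Rpl27 and Rps10l1 in 17, and Rpl13 and Rpl18 in 18. On whole reads recovered from the values, edgeR called 9 lower and 1 higher (18.0% and 16.8% of all genes) and DESeq2 called 23 lower and 1 higher (20.5% and 20.2%). Scaled to library totals, 27 members were lower and 0 higher (22.5% and 13.7% of all genes), but this scaling moved the median of all genes to -0.15. Scaled to the median of the members themselves, which set the median of all genes to 0.16, 1 member was lower and Rps27l (0.69) and Rpl10l (1.83) were higher, against 15.5% and 21.1% of all genes. By construction this scaling takes out any difference that the members share, so it shows only how single members depart from the rest.

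Treatment was set against model to ask which member levels differ between these groups. No member passed the test with limma, 0 of 85 tested, against 3.60% of all genes higher and 10.5% lower. At an unadjusted p under 0.05 there was 1 member higher and 2 lower, against 13.1% and 18.4% of all genes. The median log2 difference was -0.05 over members and 0.02 over all genes. Groups did not overlap for 2 members higher in treatment and 2 lower, against 8.51% and 13.7% of all genes. On recovered reads, edgeR called 0 members (2.71% of all genes were higher and 9.36% lower). DESeq2 called 2 lower, Rps10l1 and the chromosome 3 model of Rps13, and 0 higher (15.2% of all genes were lower and 9.60% higher). Scaled to library totals, limma called the same Rps13 model alone (13.4% of all genes were lower and 1.67% higher), with the median of all genes at -0.13. Scaled to the median of the members, it called 0 (2.31% of all genes were higher, and 2039 of 20328 genes were lower).

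The members with the smallest p in that comparison were Rps27l and Rps21 on the higher side and the chromosome 3 model of Rps13 and Rps10l1 on the lower side. Rps21, a small-subunit protein, had values of 2143, 1998, 1810 and 1919 in treatment, against 1459, 1640, 1723 and 1719 in model (log2 difference 0.27 ± 0.13, limma adjusted p = 0.183). The chromosome 3 model of Rps13 had 1051, 1185, 1083 and 1144 in treatment, against 1465, 1390, 1381 and 1249 in model (-0.30 ± 0.12, limma adjusted p = 0.125). Rps10l1 had 3370, 3434, 3443 and 3451 in treatment, against 4736, 3776, 4155 and 4399 in model (-0.31 ± 0.13, limma adjusted p = 0.137). Groups did not overlap for any of these 3. The chromosome 1 model of Rps13 was more abundant and did overlap, at 134, 131, 129 and 128 CPM in treatment and 175, 121, 180 and 148 CPM in model. How reads were split between the Rps13 models is uncertain. Next by p within each direction came Rpl18 (-0.27) and Rplp2 (-0.24) on the lower side and Rpl30l2 (0.71) and Rpl36a (0.27) on the higher side, each with groups that overlapped (limma adjusted p = 0.218 to 0.313).

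The osteoarthritis model was set against sham to ask which member levels differ in the model. No member passed with limma, 0 of 86 tested, against 0 of all genes. At an unadjusted p under 0.05 there were 0 members higher and 10 lower, against 5.90% and 7.06% of all genes. The median log2 difference was -0.15 over members and 0.03 over all genes, and 77.9% of members lay below 0, against 47.4% of all genes. Groups did not overlap for 12 members lower in model and 0 higher, against 4.77% and 3.08% of all genes. Among these 12 were Rps9, Rps12, Rps14, Rps15, Rps15a, Rps21, Rps28, Rpl10, Rpl19 and Rpl27. edgeR called 0 members and DESeq2 called 3 lower and 0 higher (1.73% of all genes were lower and 1.26% higher), namely Rps12, Rps15 and Rpl3l.

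Rps12 had the smallest p of a member between model and sham. Its values were 3235, 3112, 3281 and 3701 in model, against 4852, 4357, 4299 and 4062 in sham, so every model library lay below every sham library (log2 difference -0.40 ± 0.12, limma adjusted p = 0.296). Rps15 had 8031, 7601, 7958 and 8739 in model, against 11271, 9395, 10564 and 9676 in sham (-0.34 ± 0.12, limma adjusted p = 0.343). On the higher side the smallest p belonged to Rpl39, which lines the exit tunnel, Rpl10l, Rpl17 and Rpl22l1, at 0.54, 1.05, 0.46 and 0.37, all with groups that overlapped (limma adjusted p = 0.521 to 0.592).

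**Figure D3:**
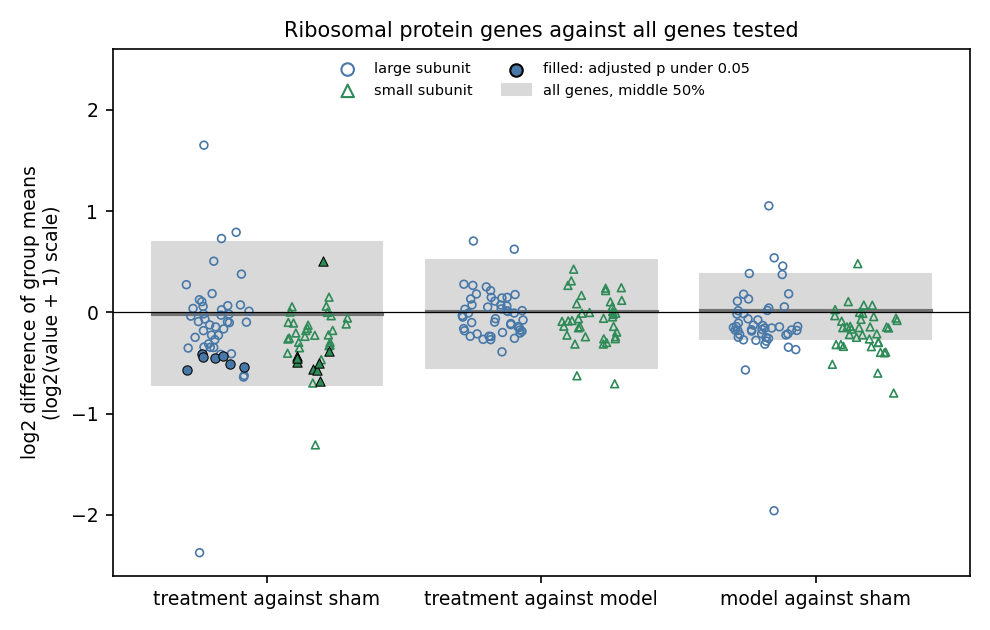
Log2 differences of group means of the ribosomal protein genes tested (circles, large subunit; triangles, small subunit) in the 3 comparisons, on the log2(value + 1) scale. Filled symbols passed the limma test, and the grey band and line give the middle 50% and the median of all genes tested; members centre at -0.20, -0.05 and -0.15 and 16 are filled, all in treatment against sham.

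The log2 differences of well-measured members were spread narrowly. Among the 64 members of at least 100 CPM, 0 differed by more than 1 on the log2 scale between treatment and sham, against 35.8% of the 2064 genes of that abundance. The distance between the quartiles of their log2 differences was 0.35, against 1.29 for those 2064 genes. It was 0.24 against 0.95 between treatment and model, and 0.20 against 0.51 between model and sham. Over the 12 libraries, on reads scaled with TMM, the highest library exceeded the lowest by a median factor of 1.58 for members and 2.76 for all genes of that abundance, and by more than 2 for 5 members (7.81%) and 68.8% of those genes.

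The 5 members that varied by more than a factor of 2 were Rpl30l2, Rpl17, Rps27a, Rpl12 and Rpl24. None of these passed the test between groups in the analysis as reported. Scaled to library totals, Rpl12 was called lower between treatment and sham (log2 difference -0.79, limma adjusted p = 0.0367). Rpl30l2, an intronless model on chromosome 10, varied the most, by a factor of 4.89. Its TMM-scaled CPM was 160, 236, 187 and 212 in treatment, 193, 119, 51.8 and 182 in model and 121, 194, 48.4 and 145 in sham, so model 3 and sham 3 stood apart as low. Rpl17, a protein around the tunnel exit, had 560, 367, 482 and 161 in treatment, 411, 163, 557 and 356 in model and 188, 216, 252 and 377 in sham. Its low libraries, treatment 4, model 2 and sham 1, come from all 3 groups. Rpl12, at the base of the stalk, had 343, 165, 176 and 165 in treatment, 409, 190, 209 and 218 in model and 365, 258, 281 and 361 in sham. Rpl24 was lowest in sham 1 (186) and Rps27a in model 2 (156).

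**Figure D4:**
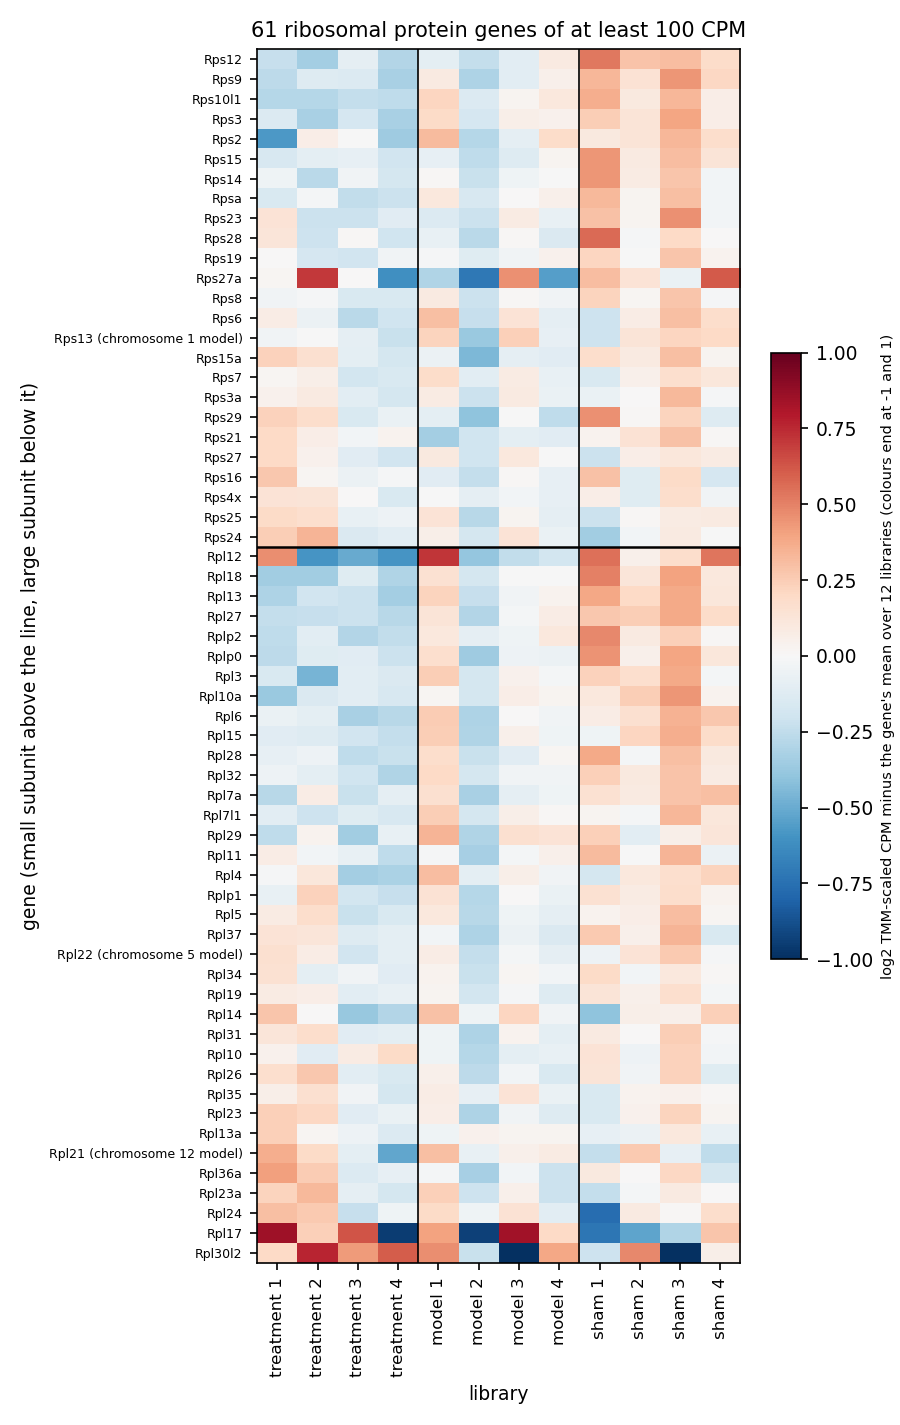
Deviation of each of 61 of the 64 members of at least 100 CPM from its own mean over 12 libraries, as log2 of TMM-scaled CPM, with libraries in columns (treatment, model, sham) and genes in rows, ordered within each subunit by the difference between treatment and sham. Most rows stay within a narrow range; Rps12, Rpl18 and Rpl13 are low in all treatment and high in all sham libraries, and Rpl30l2, Rpl17, Rps27a and Rpl12 switch between single libraries of a group.

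Paralogues were set against their parents within each library, which needs no scaling between libraries. Of 8 pairs considered, 5 had both genes measured, and each pair was compared in 3 comparisons with a two-sided exact permutation test over 70 assignments. The smallest p this test allows is 0.0286, and 0 of the 15 tests had an adjusted p under 0.05. Rps27l, a paralogue of Rps27, had the clearest pattern. Per 100 Rps27 reads there were 24.2, 26.9, 30.2 and 34.5 Rps27l reads in treatment 1 to 4, against 23.3, 18.2, 23.2 and 20.5 in model and 17.1, 23.3, 19.0 and 19.9 in sham. Every treatment library lay above every model and every sham library. The log2 ratio differed by 0.44 between treatment and model and by 0.54 between treatment and sham, each with exact permutation p = 0.0286, the smallest possible, and 0.214 after adjustment over 15 tests.

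Rps27l was also the single member that rose between treatment and sham. Its values were 935, 920, 931 and 1014 in treatment, against 481, 829, 691 and 718 in sham, without overlap (log2 difference 0.51 ± 0.17, limma adjusted p = 0.0460). Sham 1 was the lowest library. This call was lost in 11 of 19 alternatives, among them scaling to library totals and leaving out any treatment library or sham 1, 3 or 4, in which its log2 difference ran from 0.35 to 0.73 and its adjusted p reached 0.140. Against model the values were 928, 945, 918 and 1013 in treatment and 827, 536, 824 and 682 in model (0.43 ± 0.16, limma adjusted p = 0.114). Rps27 itself differed by -0.03 ± 0.15 between treatment and sham and by -0.01 ± 0.15 between treatment and model.

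Rpl3l, which takes the place of Rpl3 near the peptidyl transferase centre in skeletal muscle and heart, was uneven between libraries. Its level was 1.69, 217, 2.27 and 11.8 CPM in treatment 1 to 4, against 32.3, 23.0, 8.18 and 7.74 in model and 36.5, 119, 24.1 and 109 in sham. Treatment 2, sham 2 and sham 4 were high and are the 3 libraries with the highest sums of skeletal muscle markers. Per 100 Rpl3 reads there were 0.25, 41.9, 0.33 and 1.60 Rpl3l reads in treatment, 3.33, 3.05, 0.96 and 0.92 in model and 3.66, 12.5, 2.19 and 13.5 in sham. Rpl3l differed by -1.96 ± 0.66 between model and sham (limma adjusted p = 0.334) and by -2.37 ± 1.53 between treatment and sham (limma adjusted p = 0.270), with groups that overlapped in both. In the authors' deposited table of changed genes between model and sham, Rpl3l is the single member among 422 genes, with a log2 fold change of -2.02 and an adjusted p of 0.0459. The authors' deposited tables for treatment against model and treatment against sham, of 3363 and 5704 genes, hold 0 members; every gene in all 3 tables has a log2 fold change of more than 1 in size. The part of muscle content in these differences was not tested.

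The bases upstream of Rpl3l and Rpl3 are shown because Rpl3l was high in the 3 libraries with the highest muscle marker sums; capitals mark the E-box pattern CANNTG, to which muscle regulators of the MyoD family bind. The pattern reads the same on both strands and occurred in the 250 bases upstream of 30 of the 61 matched members (49.2%), against 65.5% of all promoters in the table.
Rpl3l, chr10:14258196-14258445, plus strand: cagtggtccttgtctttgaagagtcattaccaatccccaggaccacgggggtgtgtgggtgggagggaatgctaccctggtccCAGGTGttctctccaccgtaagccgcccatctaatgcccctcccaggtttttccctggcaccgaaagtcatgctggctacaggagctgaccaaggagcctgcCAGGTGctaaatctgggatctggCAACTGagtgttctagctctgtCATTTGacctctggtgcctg
Rpl3, chr7:113507991-113508240, minus strand: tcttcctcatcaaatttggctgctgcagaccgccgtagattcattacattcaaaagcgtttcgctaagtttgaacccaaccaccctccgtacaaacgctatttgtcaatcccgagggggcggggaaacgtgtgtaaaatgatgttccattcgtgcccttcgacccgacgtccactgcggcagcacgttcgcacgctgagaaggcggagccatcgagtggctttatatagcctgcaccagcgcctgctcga
The pattern occurs 4 times upstream of Rpl3l and 0 times upstream of Rpl3 in these windows. Other members also hold several, such as Rpl34, Rplp2 and Rpl30l2 with 3 each. Numbers of sites were not compared with those of all promoters. A match describes the letters and does not show binding.

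The remaining paralogues had few reads or wide spread. Rpl22l1 was set against both Rpl22 models together. It stood at 18.4 to 23.8 reads per 100 Rpl22 reads in treatment, 21.0 to 23.8 in model and 9.37 to 26.0 in sham, with sham 1 the lowest. Rpl10l, a paralogue of Rpl10 with its main role in the testis, had 105, 103, 112 and 36 reads in treatment, 71, 121, 17 and 66 in model and 36, 77, 22 and 9 in sham. Its log2 difference between treatment and sham was 1.65 ± 0.64 (limma adjusted p = 0.0723), with treatment 4 inside the sham range. Rpl39l had 12 to 85 reads in a library and Rpl39 had 38 to 187, and the Rpl39 model has no intron and lies on another chromosome than the RefSeq gene of that name, so their ratio of 12.5 to 111 per 100 reads is uncertain. Rpl7l1 could not be set against Rpl7, for which there is no member model; it differed by -0.27 ± 0.13 between treatment and sham (limma adjusted p = 0.135).

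**Figure D5:**
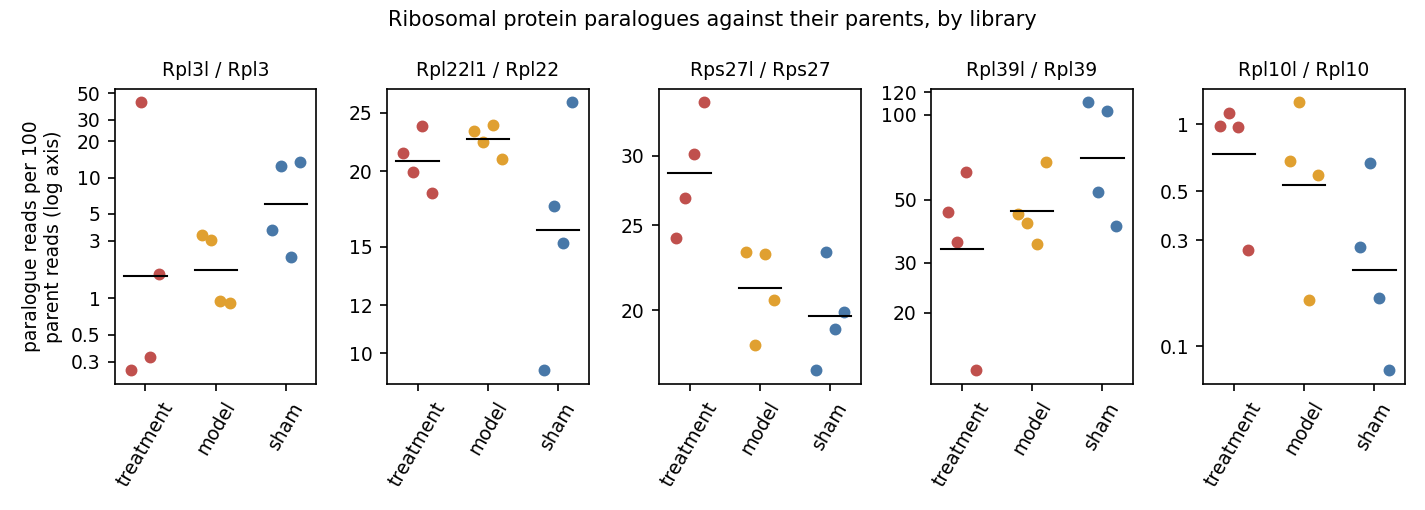
Reads of 5 ribosomal protein paralogues per 100 reads of their parent gene, by library, on log axes with a separate range for each pair; black lines are group means on the log scale (n = 4). Rps27l against Rps27 lies higher in all 4 treatment libraries (24.2 to 34.5) than in model (18.2 to 23.3) and sham (17.1 to 23.3), and Rpl3l against Rpl3 reaches 41.9 in treatment 2.

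Other ribosome components have names outside the pattern. Rack1, the scaffold protein of the small subunit, fell between treatment and sham (7937 ± 396 in treatment and 12196 ± 1358 in sham, SD, n = 4 each; log2 difference -0.61 ± 0.14, limma adjusted p = 0.00777). Fau, which makes Rps30, did not pass (-0.09 ± 0.35). Neither passed in the other 2 comparisons, where Rack1 differed by -0.23 ± 0.17 between treatment and model and by -0.36 ± 0.16 between model and sham.

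Some genes that build the ribosome also fell between treatment and sham. Of 50 measured ribosome biogenesis genes, 18 fell and 1 rose between treatment and sham, with a median of -0.30, against 19.5% lower, 17.3% higher and a median of -0.01 over all genes. Fbl, the fibrillarin that methylates ribosomal RNA, had 725 ± 87.9 in treatment and 1532 ± 183 in sham (log2 difference -1.08 ± 0.15, limma adjusted p = 0.000537), and Heatr1, of the small-subunit processome, differed by -1.05 ± 0.18 (limma adjusted p = 0.00169). Between treatment and model 2 of the 50 fell and 0 rose, against 10.5% of all genes lower and 3.60% higher. These were Nop58 (-0.71 ± 0.18, limma adjusted p = 0.0359), a partner of Fbl, and Fbl (-0.63 ± 0.18, limma adjusted p = 0.0482). The 17 dividing cell markers all fell in both comparisons, and their part in these differences was not tested. Whether biogenesis genes and members differ in how often they fell was not tested.

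Among 20 regulators of ribosomal protein synthesis, 7 fell and 1 rose between treatment and sham, against 19.5% of all genes lower and 17.3% higher. Eif4ebp2, a repressor of cap-dependent initiation that mTOR inactivates, had 669 ± 71.5 in treatment and 1361 ± 23.2 in sham (log2 difference -1.03 ± 0.13, limma adjusted p = 0.000284). Myc, which drives transcription of ribosome genes, had 406 ± 71.1 in treatment and 699 ± 27.6 in sham (-0.80 ± 0.15, limma adjusted p = 0.00320). Both also fell between treatment and model, by 0.78 and 0.71 on the log2 scale (limma adjusted p = 0.0355 and 0.0375). In that comparison 2 of the 20 regulators fell and 0 rose, against 10.5% of all genes lower and 3.60% higher.

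Of 32 initiation factors, 6 fell and 0 rose between treatment and sham, against 19.5% of all genes lower and 17.3% higher, so the share that fell was near that of all genes. The smallest p belonged to Eif3b (-0.68 ± 0.13, limma adjusted p = 0.00283), a scaffold of the eIF3 complex, and to Eif5a (-0.75 ± 0.14, limma adjusted p = 0.00307), which helps ribosomes past proline runs. Against the same 19.5% and 17.3% of all genes, 2 of 12 elongation factors and partner proteins fell and 0 rose. These were Pabpc1, the poly(A)-binding protein (8659 ± 1798 in treatment and 17290 ± 2144 in sham, -1.02 ± 0.20, limma adjusted p = 0.00329), whose own mRNA carries a TOP motif, and Eef1e1 (-1.12 ± 0.25, limma adjusted p = 0.00652). Between treatment and model Pabpc1 fell (-1.08 ± 0.26, limma adjusted p = 0.0286) and Eef2k, the kinase that slows elongation, rose (0.57 ± 0.15, limma adjusted p = 0.0419). Of the 12, 1 was thus lower and 1 higher, against 10.5% and 3.60% of all genes. Of 7 rescue and storage factors, 1 fell and 0 rose between treatment and sham, against 19.5% and 17.3% of all genes. The one that fell was Ifrd2 (-1.47 ± 0.28, limma adjusted p = 0.00298), found on idle ribosomes of rabbit reticulocytes. Hbs1l, a rescue factor, did not pass (-0.49 ± 0.19). In treatment against model 0 initiation factors and 0 rescue and storage factors passed, against 10.5% of all genes lower and 3.60% higher. Eif3b differed by -0.37, Eif4g2 by 0.30 and Ifrd2 by -1.33 (limma adjusted p = 0.0586 to 0.172).

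Nuclear genes for proteins of the mitochondrial ribosome, a separate machine, served as a neighbouring set. Of 76 measured, 5 fell and 0 rose between treatment and sham, against 19.5% of all genes lower and 17.3% higher, with a median of -0.11. Mrps12 (-0.85 ± 0.20, limma adjusted p = 0.00912) and Mrpl28 (-0.66 ± 0.17, limma adjusted p = 0.0135) had the smallest p. In treatment against model the median was 0.10 and 0 passed, against 10.5% of all genes lower and 3.60% higher. The median in model against sham was -0.16 and 0 passed. In model against sham 0 genes of all these lists passed with limma, as over all genes, and the smallest p belonged to Eef1a2, the elongation factor of muscle and nerve, at 77.3 ± 117 in model and 2716 ± 2262 in sham (-5.61 ± 1.07, limma adjusted p = 0.203). Mrpl42 (-0.68) and Mrpl12 (-0.63) had the same adjusted p, and in the biogenesis list Rrp12 (-0.51) and Imp4 (-0.55) came closest.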

How the data were processed

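Per the labels' protocols, RNA of the 12 libraries was extracted with Trizol and libraries came from a VAHTS Universal V5 kit. The submitters' processing notes name fastp, DESeq2 and the build mRatBN7.2. For aligner, counting tool, annotation release and strand, no label or header gives a name. The authors deposited 3 tables of 8 libraries, each holding a normalised signal, which by its steps is a gene's read count divided by 1 size factor per library set within that table. The authors also deposited log2 fold changes and a p-value and adjusted p-value per gene, used here only to describe their lists. Every value of a library was a whole multiple of 1 step (100% within 0.001 reads); whole reads were recovered from this for CPM, shares and the count tests.

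Each comparison was fitted within its own table on log2(value + 1) with limma 3.58.1 in R 4.3.3 (trend and robust options), keeping genes whose mean value reached 1, with Benjamini-Hochberg adjustment over all genes, called at 0.05. The fold scale shrinks differences of low genes. Members passing the filter numbered 86 of 88 listed in model against sham, 85 of 89 in treatment against model and 87 of 89 in treatment against sham. edgeR 4.0.16, DESeq2 1.42.0, other pseudocounts, filters and scalings, a replicate block and leaving out libraries were alternatives. The fits were tested on simulated data.

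Members and gene lists were chosen with earlier results of these data known. The genes named are paralogues, parents and members with special roles, the 6 highest and 6 lowest differences past the test in a comparison or, where fewer than 5 passed, the 4 smallest p in each direction, and the 2 smallest p of each ribosome-related list; genes that passed or did not overlap beyond these, and those that varied most, were named after their values were seen. Some genes that entered the counts are not reported here by name or shown in the plots of single genes. Coordinates of genes follow the authors' tables. Sequences are from RefSeq with GRCr8 coordinates, matched by symbol and chromosome.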

Additional observations from a re-analysis of the deposited data

Results flagged for a closer look

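Among 138 groups of 4 libraries checked (named members and paralogue ratios), 3 held a library far from the other 3 by Dixon's test, which flags about 1 in 20 groups by chance. Rpl3l stood at 217 CPM in treatment 2, against 1.69 to 11.8 in the other treatment libraries. Its ratio stood at 41.9 reads per 100 Rpl3 reads in the same library, against 0.25 to 1.60. Treatment 2 also had the highest sum of skeletal muscle markers, 47761 CPM, against 111 to 3552 in the other treatment libraries, and the part of muscle content was not tested. Rpl10l stood at 2.13 CPM in treatment 4, against 6.28 to 6.50 in the others, which rests on 36 reads.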

How the results depend on the processing

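Between treatment and sham, 16 members were called in the analysis as reported, against 36.8% of all genes in either direction. With edgeR 10 were called (16.8% of all genes were higher and 18.0% lower) and with DESeq2 24 (20.2% and 20.5%). Scaling to library totals gave 27 (13.7% and 22.5%). Scaling to the member median, which takes out any difference that the members share, gave 3 (21.1% and 15.5%). Without sham 2, sham 4 and treatment 2 there were 8, against 22.8% of all genes in either direction. Leaving out 1 library gave 5 to 18, against 29.1% to 38.6%. The cause of these changes was not tested. Between treatment and model, DESeq2 called 2 members (9.60% of all genes were higher and 15.2% lower) and scaling to library totals 1 (1.67% and 13.4%). The analysis as reported called 0 there (3.60% and 10.5%). Between model and sham, DESeq2 called 3 (1.26% and 1.73%), against 0 members and 0 genes as reported. The labels do not say whether equal replicate numbers belong together. The correlation of deviations of equal numbers was 0.09, 0.34, 0.25 and -0.04 between treatment and sham. It was -0.16, 0.09, 0.21 and 0.07 between treatment and model, and -0.56, -0.23, 0.11 and -0.06 between model and sham. Correlations between unequal numbers were not computed, so these values cannot decide whether samples are paired. With the replicate number as a block, 8 members were called, 7 of them among the 16, against 33.3% of all genes in either direction. Shares of reads without haemoglobin and mitochondrial genes were 2.66% in treatment, 3.22% in model and 3.55% in sham. No result changed sign among those with a call. Members under 10 CPM rest on few reads, so small differences in them would not be detectable at this depth.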
